A study of Homo sapiens with 3 samples.

Results

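Chromosome 13 of the human lymphoma cell line SC1 was described from a list of CREBBP peaks and a list of H3K27ac regions, both made by chromatin immunoprecipitation and sequencing (ChIP-seq). The members were picked by position, but the chromosome and the locus described below were chosen with earlier results of these data known. They are all intervals on chromosome 13 apart from those that touch the stretch from 41.10 to 41.27 Mb around FOXO1. They numbered 7017 of 212584 autosomal CREBBP peaks and 370 of 17727 autosomal H3K27ac regions. The stretch around FOXO1 left out 19 CREBBP peaks and 5 H3K27ac regions. The CREBBP peaks next to its edges had folds of 3.37 before and 2.29 after it, and the first and last peaks left out had folds of 3.04 and 2.45. The labels give SC1 as diffuse large B-cell lymphoma (DLBCL) and name 3 groups of 1 sample each, an antibody to CREBBP, an antibody to H3K27ac and an input with no antibody. They name no treatment and no altered gene, although DMSO and rep2 appear in the name of each peak. The input was not analysed here. With 1 sample per group no value has a replicate error and no difference was tested. The lists hold no expression values, so the labelled cell type was not checked against its markers.

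CREBBP, also called CBP, is a lysine acetyltransferase that transcription factors bring to promoters and enhancers, where it acetylates histones, among them histone H3 at lysine 27. H3K27ac marks active promoters and enhancers. Chromosome 13 is an acrocentric and gene-poor chromosome whose mapped sequence is nearly all long arm. Its long arm carries MIR17HG, the host transcript of the miR-17-92 cluster, a group of microRNAs that favour growth and survival of lymphoid cells and that lie in a band gained in some B-cell lymphomas.

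The MIR17HG locus, near 92.0 Mb on the hg19 build, lay within the most crowded stretch of CREBBP peaks on the chromosome, so the main mature products of the transcript are given here. All 6 were found in the RefSeq table for GRCh38.p14, and capitals mark the seed, bases 2 to 8, which pairs with target transcripts.
hsa-miR-17-5p: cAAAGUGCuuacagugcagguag
hsa-miR-20a-5p: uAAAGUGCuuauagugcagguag
hsa-miR-18a-5p: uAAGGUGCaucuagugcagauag
hsa-miR-19a-3p: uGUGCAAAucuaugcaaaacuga
hsa-miR-19b-3p: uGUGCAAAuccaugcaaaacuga
hsa-miR-92a-3p: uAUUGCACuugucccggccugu
They carry 4 different seeds, one shared by miR-17-5p and miR-20a-5p and another by miR-19a-3p and miR-19b-3p.

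The promoter of MIR17HG is shown because an H3K27ac region with CREBBP peaks lay at the locus. The window runs from 250 bases before to 50 bases after the RefSeq start, at chr13:91347437-91347736 on the plus strand of GRCh38.p14, a build whose positions do not match those of the peaks. Capitals mark GC boxes (GGGCGG) and a CCAAT box (CCAAT), on either strand.
MIR17HG promoter: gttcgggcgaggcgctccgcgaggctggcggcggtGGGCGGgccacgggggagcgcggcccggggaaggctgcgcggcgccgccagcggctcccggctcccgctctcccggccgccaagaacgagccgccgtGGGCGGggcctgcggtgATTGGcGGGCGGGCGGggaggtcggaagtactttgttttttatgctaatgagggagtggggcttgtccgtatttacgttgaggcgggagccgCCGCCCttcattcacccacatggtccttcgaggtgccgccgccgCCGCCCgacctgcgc
It held 6 GC boxes, of which a pair overlap, and 1 CCAAT box. GC boxes were present in 44.95% of 35116 promoters of the same length, and CCAAT boxes in 34.6%. Its G and C content was 73.0%, above that of 86.4% of these promoters. It held 42 CpG pairs, where the median promoter held 14. The E-box CACGTG, found in 7.26% of promoters, and the octamer ATGCAAAT, found in 1.77%, were not in this window.

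Seen as a whole, chromosome 13 had a middling number of CREBBP peaks and few H3K27ac regions. Its lists spanned 95.9 Mb and held 73.2 CREBBP peaks per Mb, a density that 11 of the other 21 autosomes exceeded. These ranged from 52.7 on chromosome 16 to 108 on chromosome 7, with a median of 73.7. H3K27ac regions numbered 3.86 per Mb, and only chromosome 4, at 3.66, had fewer. The other autosomes had a median of 6.01 and reached 18.9 on chromosome 19. H3K27ac covered 0.720% of the chromosome, against a median of 1.20% over the others. There were thus 19.0 CREBBP peaks for each H3K27ac region, where the median autosome had 11.3.

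**Figure D1:**
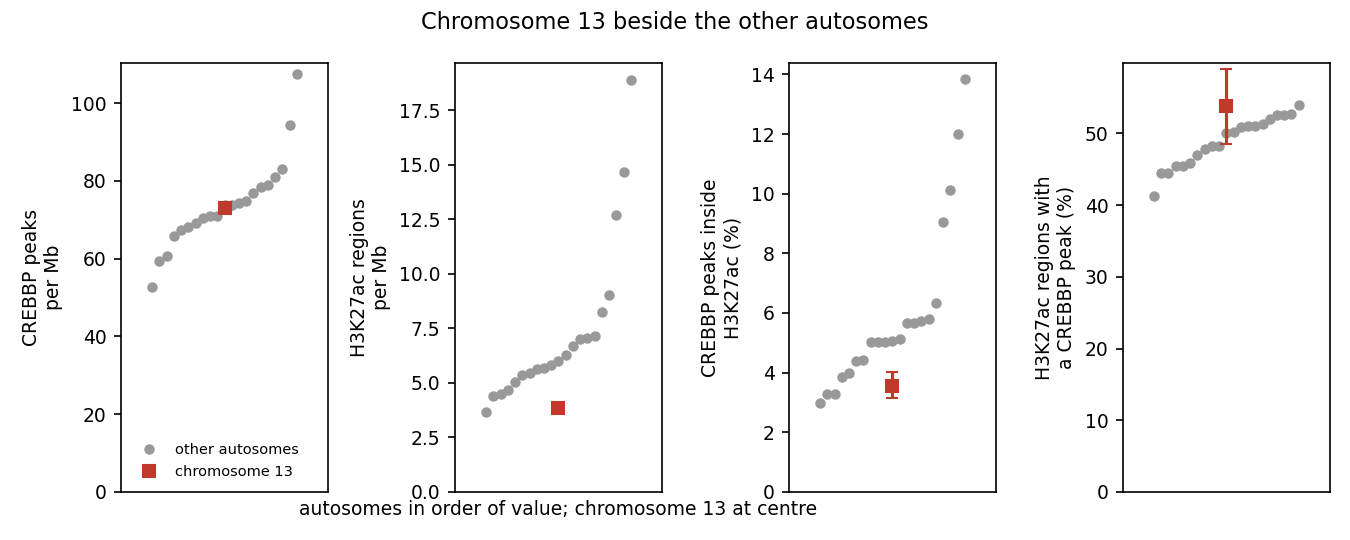
CREBBP peaks per Mb, H3K27ac regions per Mb, the share of CREBBP peaks inside H3K27ac regions and the share of H3K27ac regions with a CREBBP peak, for each autosome. Grey points are the other 21 autosomes in order of value, and the red square is chromosome 13, with an exact 95% interval on the shares. Chromosome 13 sits mid-range at 73.2 CREBBP peaks per Mb and near the bottom at 3.86 H3K27ac regions per Mb.

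CREBBP peaks of chromosome 13 were of ordinary size. Their median width was 358 bp (interquartile range 292 to 473 bp), against 362 bp over the pooled other autosomes (293 to 482 bp). The median fold, the authors' ratio of ChIP signal to expected background, was 2.17 on chromosome 13 and on each of the other 21 autosomes. Most peaks rest on so few fragments that their folds fall on a few shared values. A whole number of fragments at the summit, and the background they stood on, were worked out for each peak from its fold and p. This takes fold as a ratio with 1 added to both terms, and p as a Poisson tail. The control behind the background is not stated, so it may be the input or the CREBBP library's own signal nearby, and a high background may itself hold CREBBP signal. All 7017 peaks were solved within 0.001 of −log10 p. The median peak had 5 fragments (interquartile range 4 to 6), and 62.2% of peaks had the commonest background of 1.30 fragments, against 53.9% on the other autosomes.

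The share of CREBBP peaks that lay inside an H3K27ac region was lower on chromosome 13 than on most autosomes. It was 3.56% (250 peaks, exact Clopper-Pearson 95% interval 3.14 to 4.02%), against 4.98% over all autosomes, and 18 of the other 21 had a higher share. Such intervals reflect counting error alone, with each peak taken as independent. The share makes no allowance for the length that H3K27ac covered, 0.720% of chromosome 13 against a median of 1.20% over the others. Of the 370 H3K27ac regions, 199 had at least 1 CREBBP peak in them, or 53.8% (48.6 to 58.95%), against 49.0% over all autosomes, which the interval includes. Only chromosome 18 had a higher share, at 53.99%. Among these 199, 160 held 1 CREBBP peak, 29 held 2, 8 held 3 and 2 held 4.

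CREBBP peaks inside H3K27ac regions were wider and stood on more fragments than those outside. Inside, the median width was 452 bp, with 13 fragments over a background of 5.50, and outside it was 355 bp, with 5 fragments over 1.30. The other autosomes gave 456 bp and 17 fragments inside. Median folds were close, 2.20 inside and 2.17 outside, since the background was higher inside as well.

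Along the chromosome the CREBBP peaks were spread unevenly. In the 47 whole windows of 2 Mb the number of peaks ran from 14 to 383, with a median of 161, where the median of 1320 windows on other autosomes was 154. The coefficient of variation was 51.2%, and only chromosome 16, at 54.5%, had a larger one. More windows than elsewhere held few peaks. On chromosome 13, 11 of 47 windows (23.4%) held fewer than 77 peaks, which is 50% of that median of 154, as did 10.2% of windows elsewhere. Windows with more than 231 peaks were 3 (6.38%), a share near the 7.20% elsewhere.

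**Figure D2:**
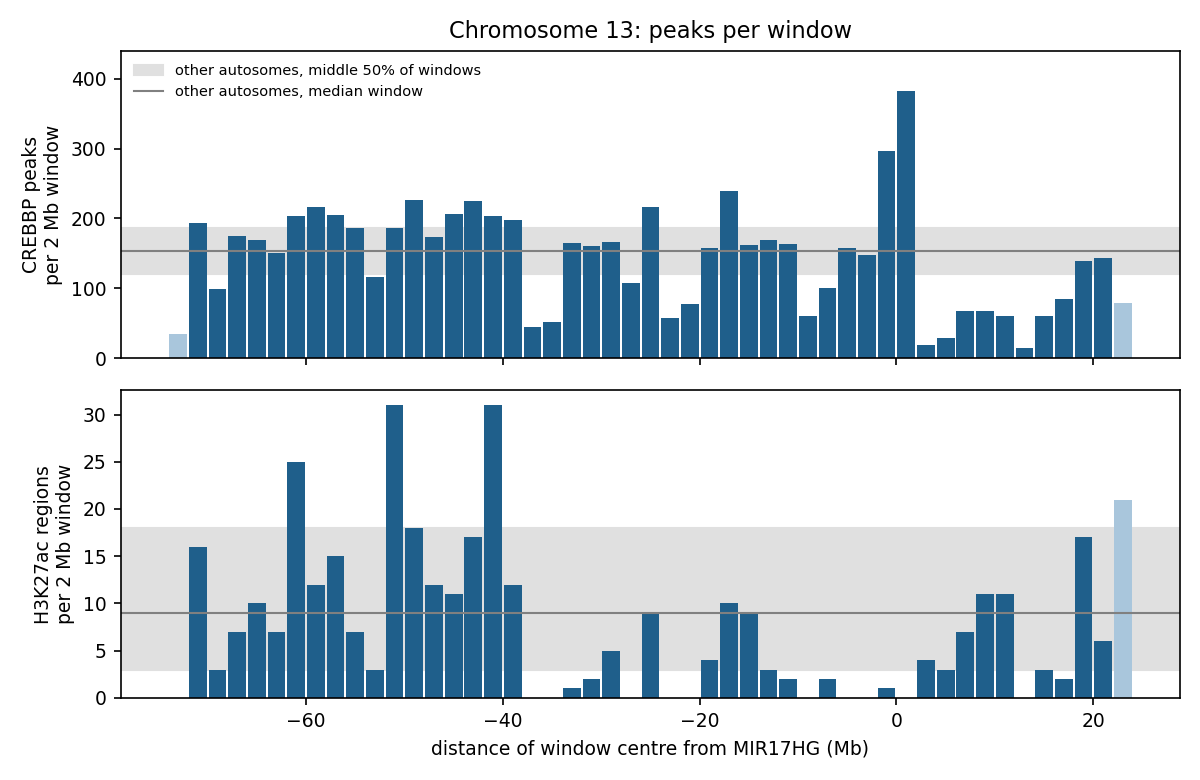
CREBBP peaks and H3K27ac regions in 2 Mb windows along chromosome 13, by distance of the window's centre from MIR17HG. The line and the grey band give the median and the middle 50% of windows on the other autosomes, and pale bars are windows not wholly inside the span of the lists. CREBBP peaks reach 383 beside MIR17HG and drop to 19 in the next window, while H3K27ac regions, counted by their start, number at most 1 in any window from 6 Mb before to 2 Mb after it.

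The fullest windows were the neighbours on either side of MIR17HG. The window from 92 to 94 Mb held 383 CREBBP peaks, and that from 90 to 92 Mb held 296. Among the 1320 windows of other autosomes, 1 held more than 383 and 11 held more than 296. The next fullest, from 74 to 76 Mb, held 239, and here 75 windows elsewhere held more. The 3 emptiest windows were at 104 to 106 Mb with 14 peaks, 94 to 96 Mb with 19 and 96 to 98 Mb with 29. The fullest window of the chromosome and its next-to-emptiest were therefore neighbours.

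Between the ends, broad blocks of windows had different densities, with edges read from the counts after they were seen. From 20 to 54 Mb there were 92.2 CREBBP peaks and 6.97 H3K27ac regions per Mb. The stretches from 54 to 58 Mb and from 68 to 72 Mb held 24.3 and 33.8 CREBBP peaks per Mb and no H3K27ac region. Between them, from 58 to 68 Mb, CREBBP peaks stood at 81.7 per Mb with 1.7 H3K27ac regions per Mb. Called CREBBP peaks could thus be common where H3K27ac was sparse. From 86 to 90 Mb, 305 CREBBP peaks (76.3 per Mb) were called with no H3K27ac region at all. Few of the peaks in these places passed a q of at most 0.05. The share was 0.33% from 86 to 90 Mb (1 of 305 peaks) and 0.49% from 58 to 68 Mb (4 of 817). It was 1.59% from 20 to 54 Mb (50 of 3136) and 1.81% over all autosomes. The median peak had 4 fragments from 86 to 90 Mb and from 58 to 68 Mb, against 5 from 20 to 54 Mb.

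Windows with more H3K27ac regions tended to hold more CREBBP peaks, apart from those beside MIR17HG. Over the 47 windows the Spearman rho was 0.53 and Pearson's r 0.37, and without the windows from 90 to 94 Mb they were 0.68 and 0.58. Over the windows of other autosomes rho was 0.41. Windows of one library share its depth and neighbouring windows share sequence, so these values are descriptions. The number of peaks in a window had a rho of -0.80 with the percentage of its peaks at the commonest background, and -0.40 on the other autosomes. Windows with many peaks on chromosome 13 were thus also those where this background, whichever library it came from, was most often above its commonest value.

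The crowding around MIR17HG had sharp edges. A scan of each autosome for the stretch of at most 10 Mb whose peak density stood out most, by Poisson likelihood and without a p-value, returned 90701618 to 93854501 on chromosome 13. These 3.15 Mb are 3.29% of the span and held 639 CREBBP peaks, 9.11% of the members, at 203 per Mb. The rest of the chromosome had 68.6 per Mb, a ratio of 2.95. The density of 203 exceeded that of the stretch found on each of the other 21 autosomes, which ran from 86.8 on chromosome 16 to 170 on chromosome 21. Those stretches ran from 0.376 Mb on chromosome 22 to 10.0 Mb on chromosome 3, so the densities are not over equal lengths. In whole windows of 2 Mb, the fullest held 383 peaks on chromosome 13, 385 on chromosome 7 and 375 on chromosome 18. Chromosome 21 had the larger ratio, 3.13, for a stretch that begins at the first peak of its list. The scan picks the densest stretch and places its edges at peaks by the same measure. A high density inside it and a contrast across its edges are therefore given as descriptions only.

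**Figure D3:**
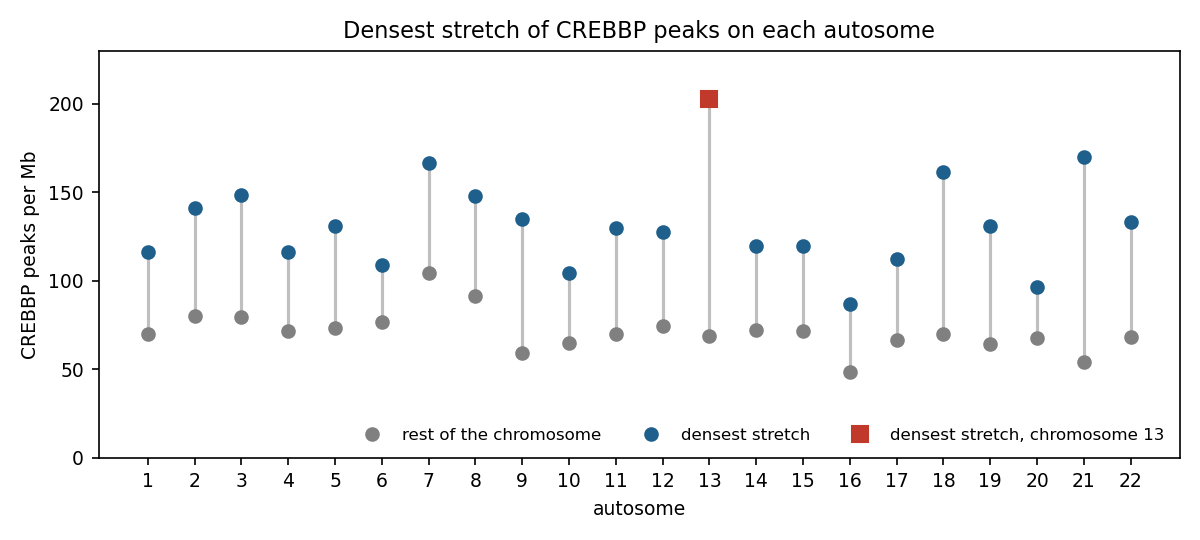
CREBBP peaks per Mb in the densest stretch found on each autosome and in the rest of that autosome. The stretch on chromosome 13, the red square, stands at 203 per Mb over 68.6 in the rest of the chromosome. The stretches differ in length between autosomes.

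Across the edges that the scan chose, the change took place over short distances. The 1 Mb before the start held 65 peaks and the first 1 Mb inside held 210. The last 1 Mb inside held 222 and the 1 Mb after the end held 5. The final peak of the stretch ended at 93854979, and the next began 107 kb later, where the widest spacing within the stretch was 33.1 kb. Median spacing was 3.24 kb in the stretch, 7.57 kb before it and 13.2 kb after it. In the order of genes on GRCh38.p14, the nearest protein-coding genes are SLITRK5 before MIR17HG and GPC5, which encodes a glypican, after it, followed by GPC6. No annotation of the files' build was at hand, so peaks were not assigned to these genes.

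**Figure D4:**
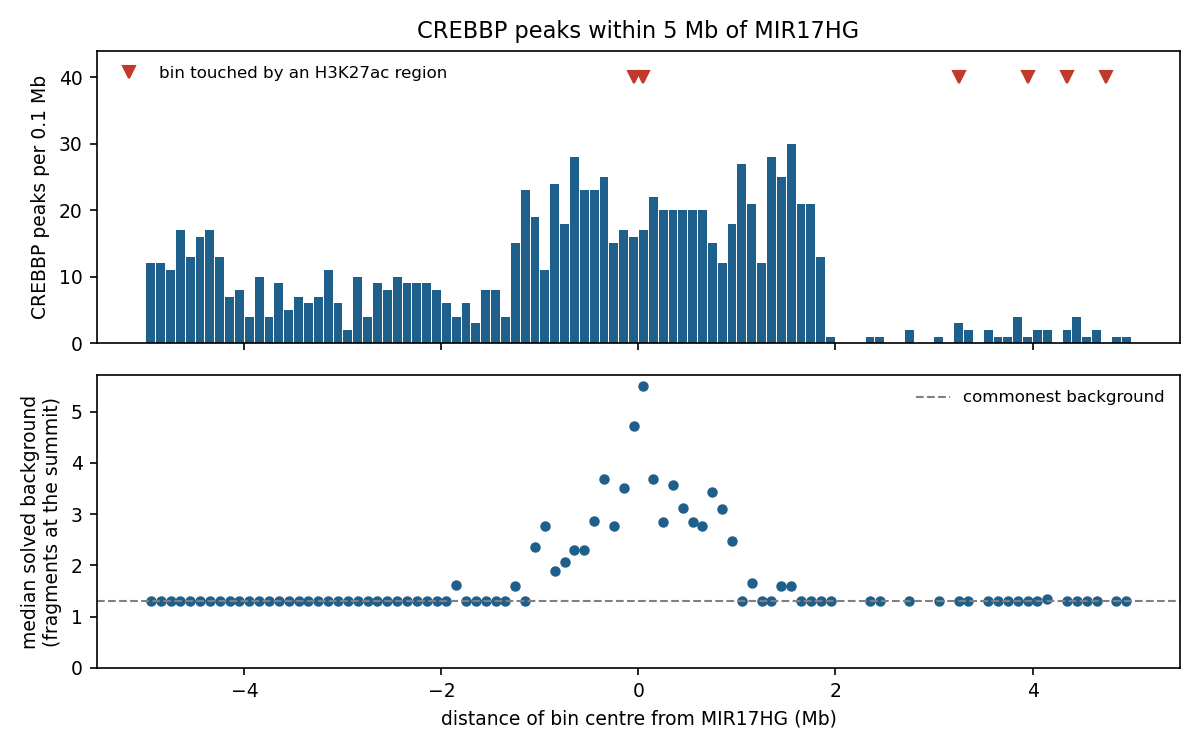
Upper panel, CREBBP peaks per 0.1 Mb within 5 Mb of MIR17HG, with triangles over bins touched by an H3K27ac region; the adjoining triangles at MIR17HG are 1 region across a bin edge. Lower panel, the median solved background of the peaks in each bin, with the commonest background of 1.30 fragments dashed; bins with no peak have no point. The peak number forms a plateau, while the background is highest at MIR17HG.

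Peaks in the crowded stretch were wider and rested on more fragments than those elsewhere on the chromosome, and their background was higher. Median width was 399 bp against 354 bp, fragments at the summit were 7 against 4, and background was 2.29 against 1.30 fragments. The commonest background was found at 17.8% of peaks in the stretch and at 66.7% of those outside it. A stretch with more DNA in the chromatin would also give more fragments and a higher background. The input was not analysed here, so CREBBP occupancy and the amount of DNA cannot be told apart in this stretch.

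The plateau of peak number did not follow the background inside the stretch. From 91.5 to 92.5 Mb no peak had the commonest background. The median background there was 3.59 in the first 0.5 Mb and 3.70 in the second, with 192 and 198 peaks per Mb. From 93.0 to 93.5 Mb the median background was 1.37, and 44.2% of peaks had the commonest one, yet the density was 226 per Mb. From 93.5 Mb to the end it was 240 per Mb. The far end of the stretch thus had more peaks per Mb than the part around MIR17HG, with a lower background.

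At like background, folds in the stretch were higher where the background was low and not where it was high. At the commonest background the median fold was 2.60 in the stretch (114 peaks) and 2.17 in the rest of the chromosome (4252 peaks). From there to 2 fragments it was 2.55 against 2.13, and from 2 to 3 it was 2.48 against 2.12. From 3 to 5 fragments the medians were 2.13 and 2.12. From 5 to 10 the order was turned, at 1.79 in the stretch (35 peaks) and 2.04 in the rest (89 peaks). Of those 89 peaks, 83 lay inside H3K27ac regions, and of the 35 in the stretch none did. The stretch has 1 H3K27ac region, and the 2 CREBBP peaks inside it had backgrounds of 48.0 and 53.6. No peak of the stretch with a background from 5 to 10 could therefore lie inside one.

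H3K27ac was nearly absent from the stretch. Only 1 region, at MIR17HG, lay in its 3.15 Mb. The region before it ended 6.45 Mb away, the longest gap on the chromosome, which held 641 CREBBP peaks. The region after it began 3.20 Mb away. Gaps of this size were found elsewhere, and the longest gap on 8 other autosomes was wider than 6.45 Mb. In the stretch 620 of 639 CREBBP peaks (97.0%) lay more than 50 kb from an H3K27ac region, against 67.1% on the chromosome as a whole.

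The H3K27ac region at MIR17HG ran from 91999104 to 92002386, 3283 bp, with a fold of 5.96. It ranked 48th of 370 by width and 137th by fold, and so was wide but of ordinary fold. The median region of the chromosome had a width of 1384.5 bp and a fold of 4.92. The RefSeq table cannot place this region within the gene, since its build differs.

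It held a pair of CREBBP peaks that stood first and second on chromosome 13 by number of fragments. The peak from 92000719 to 92001631 had 89 fragments over a background of 53.6, a fold of 1.65, and its −log10 q was 1.63. The peak from 91999129 to 91999741 had 63 fragments over a background of 48.0. Its fold of 1.31 was the lowest of all 7017 peaks, and its −log10 q was 0. A ranking by fold thus placed the peaks with most fragments at the bottom of the list. The nearest peaks outside the region had 9 fragments over 5.27 on one side and 14 over 8.66 on the other.

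**Figure D5:**
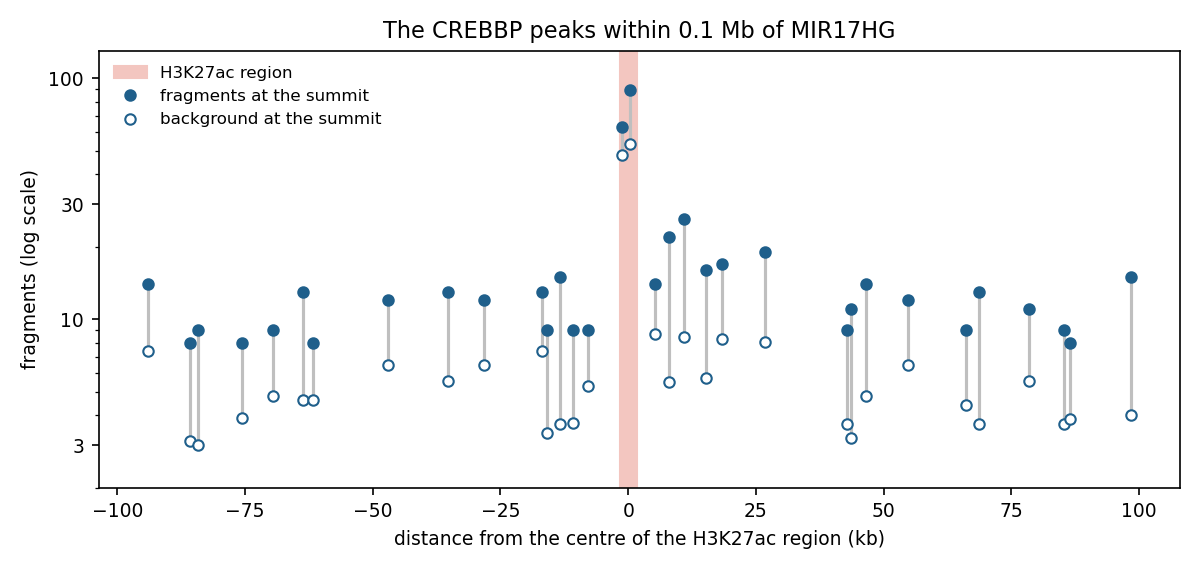
Fragments (filled) and background (open) at the summit of the 33 CREBBP peaks within 0.1 Mb of MIR17HG, on a log scale, by distance from the centre of the H3K27ac region (shaded). Both are highest at the pair of peaks inside the region, at 89 and 63 fragments, where the gap between the filled and open points, the fold, is small.

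The remaining peaks of the locus lay outside H3K27ac. Within 0.1 Mb of MIR17HG there were 33 CREBBP peaks, with folds from 1.31 to 3.54 (median 2.12) and 8 to 89 fragments (median 12). None had the commonest background, and their median background was 4.81. Over all autosomes 1.81% of peaks passed a q of at most 0.05, and of these 33 there were 5 that did. The strongest of them ran from 92007680 to 92009717, 5.29 kb beyond the region, with 22 fragments over 5.50, a fold of 3.54 and a −log10 q of 3.50. Next to it, from 92010126 to 92013326, lay the widest CREBBP peak of the chromosome, 3201 bp, with 26 fragments over 8.48 and a fold of 2.85. A peak from 91986857 to 91988022, before the region, had 15 fragments over 3.67 and a fold of 3.43. The other two that passed were the peak with 89 fragments and one from 92098819 to 92099324, with a fold of 3.19. Just beyond the 0.1 Mb, the next peaks had folds of 1.67 before and 3.69 after.

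The 0.5 Mb on either side of MIR17HG held 195 CREBBP peaks and the 1 H3K27ac region. Of these 195 peaks 15 passed the limit on q, where 1.81% of peaks did over all autosomes. Of 96 windows of that size laid along the chromosome, 94 held fewer CREBBP peaks, and their median was 79.5. The median number of H3K27ac regions in these windows was 2, and 30 windows held none.

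Peaks that passed q of at most 0.05 were 108 of the 7017 members, 1.54% (1.26 to 1.86%), against 1.81% over all autosomes, a share within the interval. The crowded stretch held 30 of them, 4.69% of its peaks (3.19 to 6.63%), where the rest of the chromosome had 78, or 1.22% (0.968 to 1.52%). At like background the stretch had the higher share below 3 fragments, as at the commonest background, with 2.63% against 0.306%. Above that the order was turned, at 3.33% against 13.2% from 3 to 5 fragments and 5.71% against 16.9% from 5 to 10. In the rest of the chromosome, 49 of 106 and 83 of 89 peaks at these backgrounds lay inside H3K27ac regions. None of those in the stretch did. On chromosome 13, 18.0% of peaks inside such regions passed q, against 0.931% of those outside. With a single H3K27ac region in the stretch, nearly none of its peaks could lie inside one. Of the 30, 1 did and 26 (86.7%) lay more than 50 kb away, against 97.0% of all peaks in the stretch. Of the 78, 44 lay inside (56.4%) and 15 lay more than 50 kb away. Over all autosomes 56.4% of such peaks lay inside. On the whole of chromosome 13 the share was 41.7% (45 of 108, 32.3 to 51.5%), with the 56.4% given above in the rest of the chromosome.

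Wide CREBBP peaks were found in the stretch as well. Peaks of 1000 bp or more were 124 of the members (1.77%), against 1.71% over all autosomes, and 25 of the 124 lay in the stretch, 3.91% of its peaks. Of the 5 widest on the chromosome, 4 lay there. Besides the pair next to MIR17HG they were at 91813049 to 91815020, of 1972 bp and fold 4.51, and at 90893127 to 90895027, of 1901 bp and fold 3.47. The remaining one, at 87697369 to 87699142, had a width of 1774 bp and a fold of 2.43. None of these 5 lay in an H3K27ac region, and the stretch that held 4 of them has only 1 such region. Of all 124 wide peaks 16 lay inside one, and on the other autosomes 732 of 3514 wide peaks did. Among the members as a whole 250 of 7017 (3.56%) did. A wider peak meets a region more readily when 1 shared bp is enough.

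The largest folds lay elsewhere on the chromosome, with 1 exception. The peak from 62783447 to 62784156 had a fold of 7.67, with 35 fragments over 3.70, and lay inside an H3K27ac region. It also had the largest −log10 q, 17.8. The second by fold, 7.02, lay near the start of the mapped sequence, from 19712222 to 19712538, with 19 fragments over 1.85 and 426 kb from the nearest H3K27ac region. Those at 41579024 to 41580107 (fold 5.64, 12 fragments) and 47029406 to 47030438 (fold 5.05, 11 fragments) were inside H3K27ac regions. The fifth, at 90994142 to 90994497 with a fold of 4.99 and 12 fragments, lay in the crowded stretch, 1005 kb from any H3K27ac region. By −log10 q the second was from 41019463 to 41020572, with 47 fragments over 9.24 and a value of 13.9. The next, after the peak near the start of the mapped sequence, at 31019733 to 31020224 (8.70) and 111837100 to 111837674 (7.14), were inside H3K27ac regions too.

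Most H3K27ac regions lay in the first part of the chromosome, with 237 of the 370 from 20 to 54 Mb. The fullest whole windows were 40 to 42 Mb and 50 to 52 Mb, with 31 regions each, and 30 to 32 Mb with 25. Regions were also dense at the far end. The last window, from 114 Mb, was cut short by the end of the lists at 115108397 and held 21. The window from 40 to 42 Mb is counted without the stretch around FOXO1. No region started in 10 of the 47 windows (21.3%), against 11.7% of windows on the other autosomes. One of the 10, from 92 to 94 Mb, holds 2.39 kb of the region at MIR17HG, which starts in the window before. The solved background of CREBBP peaks was also higher in the fullest whole windows. The median background was 1.85 at 30 to 32 Mb and at 50 to 52 Mb, where 31.9% and 23.6% of peaks had the commonest one, against 73.8% in the median window of the chromosome.

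The 5 H3K27ac regions of largest fold held at most 1 CREBBP peak each, as did most regions. Of all 370, 171 held none and 160 held 1. The first, from 34374038 to 34374418, had a fold of 35.4, and the second, from 34380208 to 34382097, had 33.0. The fourth, from 34368802 to 34369075, had 29.9. None of these 3 neighbours held a CREBBP peak. The third, from 49684425 to 49684706 with a fold of 30.6, and the fifth, from 34115499 to 34118153 with 28.3, held 1 each. Of the 5, 4 lay within 0.5 Mb of each other, among 14 regions between 34 and 35 Mb.

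The widest H3K27ac regions all held CREBBP peaks. The widest, from 46945714 to 46965782, spanned 20069 bp with a fold of 4.41 and held 4, of which 2 had q of at most 0.05. The others were from 74540583 to 74550756 (10174 bp, 2 CREBBP peaks), 43700335 to 43709874 (9540 bp, 2), 41552126 to 41560852 (8727 bp, 3) and 30942887 to 30951463 (8577 bp, 3). Over the whole chromosome the presence of a CREBBP peak differed with the width of a region. With the regions split by width into 4 sets of near equal size, 33.3% of the narrowest set (23.9 to 43.9%) and 84.9% of the widest set (76.0 to 91.5%) had one. The same split on the other autosomes gave 28.1% and 73.9%. Length itself raises the number of peaks a region can meet. Split by fold, the share was 48.4% in the lowest set (37.9 to 58.99%) and 54.8% in the highest (44.2 to 65.2%), and these intervals overlap. On the other autosomes these shares were 43.4% and 48.5%.

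Beyond the crowded stretch lay a block whose edges were set by its low CREBBP counts. From 94 to 110 Mb there were 25.1 CREBBP peaks and 2.56 H3K27ac regions per Mb, and no window there held more than 84 peaks. Since low counts chose the block, its windows are set beside others with 7 to 12 H3K27ac regions only as a description. The 3 such windows from 94 to 110 Mb held 61, 67 and 67 CREBBP peaks, and the 11 from 20 to 90 Mb held 151 to 239. On the other autosomes 286 such windows had a median of 174 (interquartile range 151 to 204), and 8 of them (2.80%) held fewer than 68. Of the 41 H3K27ac regions from 94 to 110 Mb, 23 held a CREBBP peak (56.1%), near the 53.8% of the chromosome and the 49.0% over all autosomes. Of the CREBBP peaks there 6.23% lay inside a region, against 3.56% on the chromosome and 4.98% over all autosomes. From 110 to 114 Mb the density returned to 70.5 per Mb. The share of peaks at the commonest background was 81.0% from 94 to 110 Mb, and the median peak had 4 fragments. These values were not particular to the block. From 86 to 90 Mb, with 76.3 peaks per Mb, they were 81.97% and 4 fragments. From 72 to 82 Mb, with 89.1 peaks per Mb, they were 74.7% and 4 fragments. From 20 to 54 Mb and from 110 to 114 Mb the median was 5 fragments.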

How the data were processed

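The build was hg19 and the tools were MACS2, Bowtie2, fastp and STAR, per the submitters' processing notes. Their roles and settings, any pooling and the control library were not given in the sources used here. The authors deposited narrow CREBBP peaks and broad H3K27ac regions. Each deposited list gives a fold (a ratio to expected background), −log10 p, −log10 q and a score, which was 10 times −log10 p (CREBBP) or −log10 q (H3K27ac). For H3K27ac, fold was read as an average across the region. On chromosome 13, 82.2% of CREBBP peaks had a deposited −log10 q of 0. Library depth is not stated in the lists.

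Autosomes 1 to 22 were used, with positions counted from 1. Density was set over the span from the first to the last interval. A peak was inside a region when they shared 1 bp, and it belonged to the 2 Mb window of its start. Fragments and backgrounds are inferences from fold and p. No test was run, since each group had 1 sample. Named positions were the 5 largest by fold and width in each list and by q in the CREBBP list, the 3 fullest and emptiest windows, and the surroundings of MIR17HG; blocks, segments and matched windows were chosen after values were seen. The chromosome, locus and settings were chosen with earlier results of these data known. Overlap code returned the right answer for all 5000 simulated peaks at each of 2 planted shares, and the fragment solution did so for 939 of 939. Those 939 were simulated with the same formulas for fold and p, so the formulas themselves were not checked. Their backgrounds all lay above the commonest one and below those of the pair of peaks inside the H3K27ac region at MIR17HG. The scan placed both edges within 0.1 Mb in 17 of 20 simulated stretches. The scripts ran under Python 3.11.15 with scipy 1.17.1, pandas 2.3.3, numpy 2.4.6 and matplotlib 3.10.9. Alternatives were stricter peaks or regions, other overlaps, windows and lengths, and FOXO1 kept in.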

Additional observations from a re-analysis of the deposited data

How the results depend on the processing

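Of 48 alternative values for 11 results, 29 stayed within the 95% interval of a share or median or within 1.5 times a density, and 19 moved. With CREBBP peaks of p at most 0.01, density was 32.6 per Mb, median fold 2.60, median width 383 bp, the share inside H3K27ac 6.11%, the share of regions holding a peak 42.4%, and the fullest window 4.18 times the median window, where all peaks gave 2.38. With q at most 0.05 these were 1.13 per Mb, 3.84, 554.5 bp, 41.7%, 11.9% and 16 times, and 15 peaks per Mb lay around MIR17HG. With the upper 50% of H3K27ac regions, density was 1.65 per Mb, median fold 8.57 and the share of CREBBP peaks inside 1.58%. The 1 H3K27ac region at MIR17HG gave 5 per Mb within 0.1 Mb and 0.5 per Mb within 1 Mb. Without the crowded stretch, an alternative chosen after seeing the data, the fullest window was 1.52 times the median. Stricter lists hold fewer intervals by construction; the cause of the other shifts was not tested. Other overlaps, other 1 or 2 Mb grids, the length used for density and FOXO1 kept in moved no value. No paired analysis was possible because there was only 1 library per antibody. Few fragments per peak limit the CREBBP list, and no value could be set against a replicate.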
